A study of Homo sapiens with 8 samples.

Results

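The transcripts of the enzymes that write, copy, oxidise and remove cytosine methylation, and of 2 proteins that read it, were followed in HepG2 cells with and without sodium benzoate (SB). The genes were DNMT1, DNMT3A, DNMT3B, TET1, TET2, TET3, UHRF1, MBD2 and TDG. They were listed by name, and 9 of 9 have a value among the 14526 genes of the deposited expression table. SB is a food preservative from which cells form benzoyl-CoA, and the RNA-seq addressed which transcripts change when histone benzoylation is raised with it. The control group was 4 cultures of cells grown without SB, and the SB-treated group was 4 cultures given 10 mM SB for 24 h before harvest. Both groups were 1 established line, labelled HepG2, which derives from a human liver carcinoma, in DMEM with serum, and 1 dose and 1 time were measured.

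In mammals most DNA methylation sits on the cytosine of CpG dinucleotides. DNMT3A and DNMT3B place it on unmethylated DNA, and DNMT1 copies it to the new strand after replication, brought there by UHRF1, which recognises DNA methylated on the parent strand alone. The TET dioxygenases oxidise methylcytosine stepwise, the glycosylase TDG excises the most oxidised forms so that base excision repair can restore cytosine, and MBD2 binds methylated CpG and brings in the NuRD corepressor.

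The promoter sequences of the 4 genes whose change passed the test under every setting tried are shown because CpG dinucleotides are the substrate of these enzymes. Each is read 5′ to 3′ on the strand of its gene, from RefSeq on GRCh38.p14. The window was the 250 bases before the 1 start per gene used in the RefSeq promoter table, shortened where an annotated exon lies in it, and the capitals mark every CG. For DNMT3A, TET3, DNMT3B and UHRF1 that start lies inside the gene span given below, downstream of the outermost annotated start, so their windows are those of an inner start. The stretch printed for DNMT3A lies wholly before its span. The DNMT3A stretch is chr2:25342591-25342733 on the minus strand, and the plus-strand stretches are chr2:73984660-73984909 for TET3, chr4:105145625-105145874 for TET2 and chr12:103965709-103965821 for TDG.
DNMT3A: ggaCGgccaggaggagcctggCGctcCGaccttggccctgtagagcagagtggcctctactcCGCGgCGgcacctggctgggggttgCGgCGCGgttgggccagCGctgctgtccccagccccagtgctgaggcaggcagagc
TET3: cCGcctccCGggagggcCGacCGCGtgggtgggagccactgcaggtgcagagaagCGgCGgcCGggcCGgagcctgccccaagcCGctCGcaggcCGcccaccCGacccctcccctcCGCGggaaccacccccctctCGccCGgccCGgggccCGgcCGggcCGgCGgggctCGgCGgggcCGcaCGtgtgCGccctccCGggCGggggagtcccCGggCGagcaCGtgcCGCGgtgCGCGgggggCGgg
TET2: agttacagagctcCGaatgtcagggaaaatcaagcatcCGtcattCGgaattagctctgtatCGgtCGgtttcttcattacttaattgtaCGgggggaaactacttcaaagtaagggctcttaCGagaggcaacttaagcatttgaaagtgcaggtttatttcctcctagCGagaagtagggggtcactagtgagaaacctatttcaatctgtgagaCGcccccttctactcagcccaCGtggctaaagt
TDG: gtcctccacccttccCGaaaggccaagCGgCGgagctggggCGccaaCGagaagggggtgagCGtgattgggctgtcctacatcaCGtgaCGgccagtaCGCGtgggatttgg
Over the full window of 250 bases, the TET3 promoter held 37 CG, the most of the 9 windows examined, and the TET2 promoter held 10. The other counts were 21 for DNMT3A, 22 for TDG, 28 for UHRF1, 21 for DNMT1, 21 for MBD2, 9 for TET1 and 3 for DNMT3B, with the inner starts of DNMT3A, TET3, UHRF1 and DNMT3B counted beside outermost starts of the others. The motif searched was CG, which reads the same on both strands. The median over 35116 RefSeq promoters was 11, and at least 20 CG were held by 32.4% of them and by 6 of these 9. The genes that rose therefore include both the most CG-dense of these windows and one below the median of all promoters. The counts describe the reference sequence only, since methylation itself was not measured in these samples.

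The values are RPKM, reads scaled to gene length and to library size, after the authors scaled library sizes with TMM factors. Between 36990091 and 44878446 reads per library were recovered from the table. Of 18 hepatocyte markers listed, 16 have no value in it, among them ALB, AFP, APOA1 and HNF4A. TF, the iron carrier transferrin, was at 0.192 RPKM in the controls and 0.379 RPKM in SB-treated cells, so the defining markers reported here of the labelled cell type were missing from the table or low in both groups. Control replicate 1 stood apart: it was the far value among the controls by Dixon's criterion for 14.6% of all genes, against 0.317% to 0.620% for the other control replicates. Results are therefore also given without it. In bulk RNA, fewer cells expressing a gene and less of its RNA per cell cannot be told apart.

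Of the 9 genes, 3 rose in SB-treated cells (TET3, DNMT3A and TET2), 3 fell (TDG, TET1 and DNMT3B), and DNMT1, UHRF1 and MBD2 did not pass the test, which was a limma fit to log2(RPKM + 1) of the whole table, its p-values adjusted by Benjamini-Hochberg over every gene, at a threshold of 0.05. Over all 14526 genes, 33.0% were called higher and 32.6% lower, 65.6% together, so the 6 calls among 9 genes lie at the background of the whole table. The same 6 genes were those whose 4 control and 4 SB-treated values did not overlap, 3 higher and 3 lower, where 31.0% of all genes were higher without overlap and 30.5% lower, 61.5% together. The largest changes were increases of 34.0% in TET3 and 33.6% in DNMT3A and a decrease in TDG, whose SB-treated mean was 0.832 times that of the controls. The median of the absolute log2 fold changes was 0.30 among called genes, and those of TET3 and DNMT3A exceeded it. Without control replicate 1 the same 3 genes rose and 5 fell, TDG, TET1, DNMT3B, DNMT1 and UHRF1, where 37.6% of all genes were called higher and 37.9% lower, 75.5% together. With voom on the recovered reads, 3 rose and 4 fell, DNMT1 among them, beside 33.5% of all genes higher and 32.8% lower, 66.2% together. Without the TMM factors 3 rose and TDG alone fell, beside 43.0% higher and 23.1% lower, also 66.2% together.

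**Figure D1:**
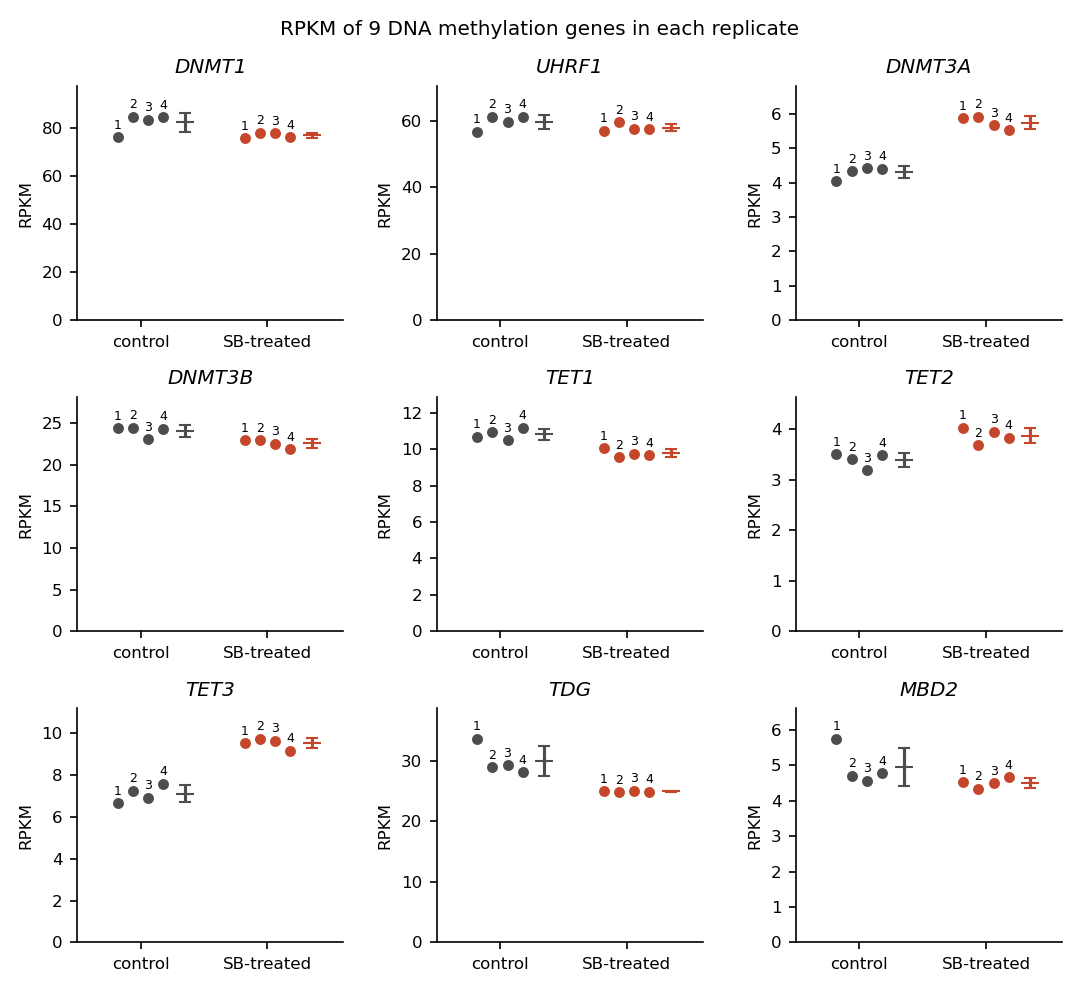
RPKM of each of the 9 genes (vertical axes, each from 0) in the 4 control and the 4 SB-treated replicates. Points are single replicates with their numbers, and the bars give the mean and SD. The 4 SB-treated values of TET3 (9.18 to 9.75) and DNMT3A (5.51 to 5.91) sit above all control values, and those of TDG (24.8 to 25.1) sit below them, while control replicate 1 is the highest control for TDG and MBD2 and the lowest for DNMT1.

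DNMT1, the maintenance methyltransferase, had the highest level of the 9 genes. It was at 76.4, 84.8, 83.6 and 84.7 RPKM in control replicates 1 to 4 and at 75.8, 78.2, 77.8 and 76.1 RPKM in SB-treated replicates 1 to 4. Control replicate 1 lay within the SB-treated range, and the other controls lay above all SB-treated values. The group means were 82.4 ± 4.04 and 77.0 ± 1.19 RPKM (SD, n = 4), which is a log2 fold change of -0.10 (SE 0.041, limma adjusted p = 0.0660). Without control replicate 1 the log2 fold change was -0.13 and passed (limma adjusted p = 0.000938). The call in this fit therefore depended on that library: with it the groups overlapped, and without it they did not. The gene lies at chr19:10133346-10194953 on the minus strand, and between 15732 and 19124 reads per library stood behind these values.

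UHRF1, which hands hemimethylated DNA to DNMT1, was at 56.7, 61.3, 59.8 and 61.2 RPKM in control replicates 1 to 4 and at 57.0, 59.5, 57.7 and 57.5 RPKM in the SB-treated replicates. Its groups overlapped, with control replicate 1 again the lowest control. The means were 59.7 ± 2.13 and 57.9 ± 1.08 RPKM (SD, n = 4). The log2 fold change of -0.04 (SE 0.037, limma adjusted p = 0.317) had a 95% interval from -0.13 to 0.04, which leaves out changes of the size seen for TET3 or DNMT3A. Without control replicate 1 it was -0.07 (limma adjusted p = 0.0381). UHRF1 lies at chr19:4903080-4962154, where its span overlaps ARRDC5 and MIR4747.

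The direction of both maintenance genes depended on the library scaling. Without the TMM factors, the log2 fold change was 0.0087 for DNMT1 and 0.06 for UHRF1, against a median of 0.08 over all genes on that scale, and neither passed the test. The log2 ratio of DNMT1 to UHRF1 within a library, which does not depend on that scaling except through the pseudocount, was between 0.42 and 0.48 in the controls and between 0.39 and 0.43 in SB-treated cells. It changed by -0.05 (SE 0.014, exact permutation p = 0.0571, 0.0571 after adjustment over 5 pairs), and the groups overlapped.

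DNMT3A, a de novo methyltransferase, rose. It was at 4.04, 4.34, 4.41 and 4.40 RPKM in control replicates 1 to 4 and at 5.86, 5.91, 5.67 and 5.51 RPKM in the SB-treated replicates. All SB-treated values lay above all control values, by more than the spread within either group. From 4.30 ± 0.176 to 5.74 ± 0.185 RPKM (SD, n = 4), the log2 fold change was 0.35 (SE 0.038, limma adjusted p = 3.52e-05), and it was 0.32 without control replicate 1. The exact permutation test of 4 against 4 gave p = 0.0286, the smallest p this design allows. DNMT3A ranked 1762 of 14526 by size of rise. The gene lies at chr2:25227874-25342590 on the minus strand, its values rest on 893 to 1452 reads per library, and RefSeq lists the pseudogene DNMT3AP1.

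DNMT3B, the other de novo enzyme, was at 24.4, 24.5, 23.0 and 24.3 RPKM in control replicates 1 to 4 and at 22.9, 22.9, 22.5 and 21.9 RPKM in the SB-treated replicates. The groups did not overlap, but the lowest control, replicate 3, was close to the highest SB-treated values. The means were 24.1 ± 0.676 and 22.6 ± 0.506 RPKM (SD, n = 4), which is a log2 fold change of -0.09 (SE 0.035, limma adjusted p = 0.0483). This call was marginal: it was lost with a pseudocount of 0.1 (limma adjusted p = 0.0705), and without the TMM factors the direction turned (0.013). DNMT3B lies at chr20:32762385-32809356.

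The levels of the 2 de novo genes thus drew closer. DNMT3B was the more abundant in every library, and DNMT3A made up 15.2% ± 0.767 of their summed RPKM in the controls and 20.3% ± 0.193 in SB-treated cells (SD, n = 4). The sum itself was 28.3 ± 0.621 and 28.3 ± 0.686 RPKM. These equal sums belong to the TMM scale: without the TMM factors the log2 fold changes were 0.44 for DNMT3A and 0.013 for DNMT3B. The log2 ratio of DNMT3A to DNMT3B went from -2.24 to -1.81, a change of 0.44 (SE 0.038, exact permutation p = 0.0286, 0.0357 after adjustment over 5 pairs). It did not overlap between groups, and the change was 0.41 without control replicate 1, where an exact test of 4 against 3 cannot go below p = 0.0571.

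**Figure D2:**
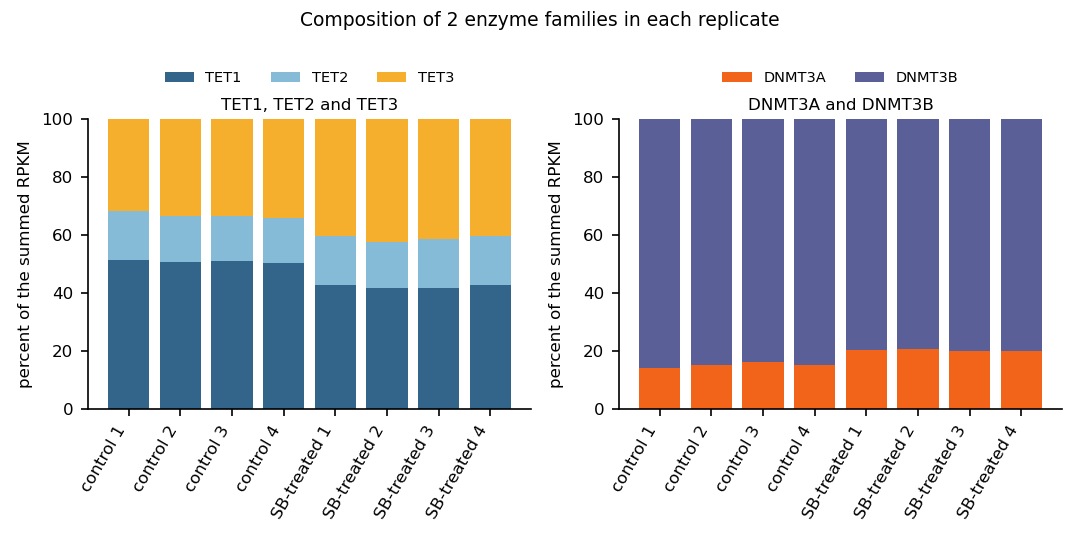
Percent of the summed RPKM of a family (vertical axes) held by TET1, TET2 and TET3 (left) and by DNMT3A and DNMT3B (right), 1 bar for each replicate. TET3 rises from a mean of 33.3% to 41.1% as TET1 goes from 50.8% to 42.2%, and DNMT3A goes from 15.2% to 20.3%.

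TET1, one of the 3 dioxygenases and the most abundant of them in the controls, fell. It was at 10.7, 10.9, 10.5 and 11.2 RPKM in control replicates 1 to 4 and at 10.1, 9.57, 9.75 and 9.67 RPKM in the SB-treated replicates. All SB-treated values lay below all controls. The means were 10.8 ± 0.305 and 9.76 ± 0.214 RPKM (SD, n = 4), which is a log2 fold change of -0.13 (SE 0.034, limma adjusted p = 0.00624). Without control replicate 1 it was -0.14. Without the TMM factors it was -0.04 and did not pass (limma adjusted p = 0.337). TET1 lies at chr10:68560337-68694487.

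TET2, the least abundant of the 9 genes in both groups, rose. It was at 3.50, 3.40, 3.19 and 3.48 RPKM in control replicates 1 to 4 and at 4.03, 3.68, 3.95 and 3.83 RPKM in the SB-treated replicates. The groups did not overlap, and the nearest values were control replicate 1 and SB-treated replicate 2. The means were 3.39 ± 0.142 and 3.87 ± 0.151 RPKM (SD, n = 4), which is a log2 fold change of 0.15 (SE 0.039, limma adjusted p = 0.00682) and of 0.16 without control replicate 1. TET2 lies at chr4:105145875-105279803 and overlaps TET2-AS1, whose reads could be counted with it since no strand setting of the counting is stated.

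TET3 had the largest rise of the 9 genes. It was at 6.66, 7.25, 6.93 and 7.59 RPKM in control replicates 1 to 4 and at 9.53, 9.75, 9.64 and 9.18 RPKM in the SB-treated replicates. The gap between the highest control and the lowest SB-treated value exceeded the range within either group. The means were 7.11 ± 0.402 and 9.52 ± 0.249 RPKM (SD, n = 4), which is a log2 fold change of 0.38 (SE 0.043, limma adjusted p = 4.32e-05) and of 0.35 without control replicate 1. Of all genes, 21.5% had an absolute log2 fold change at least as large. TET3 lies at chr2:73983631-74135498, and its span overlaps the pseudogene FNBP1P1 and BOLA3, which has its own values in the table.

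The summed TET level was 21.3 ± 0.751 RPKM in the controls and 23.2 ± 0.410 RPKM in SB-treated cells (SD, n = 4), and its composition shifted. TET1 held 50.8% ± 0.421 of the sum in the controls and 42.2% ± 0.548 in SB-treated cells, TET3 held 33.3% ± 0.940 and 41.1% ± 0.948, and TET2 held 15.9% ± 0.590 and 16.7% ± 0.476. The ranges of TET1 and TET3 shares did not overlap between groups, and those of TET2 did. In the controls TET1 was above TET3 in every library, and in SB-treated cells the values of both genes overlapped.

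Ratios within each library gave the same picture with a test. The log2 ratio of TET1 to TET3 went from 0.54 to 0.03, a change of -0.51 (SE 0.032, exact permutation p = 0.0286, 0.0357 after adjustment over 5 pairs). For TET1 to TET2 the change was -0.28 (SE 0.021, exact permutation p = 0.0286, 0.0357 adjusted). The ratio of TET2 to TET3 changed by -0.23 (SE 0.049, exact permutation p = 0.0286, 0.0357 adjusted), so TET3 gained on TET2 as well. These 3 ratios did not overlap between groups, and they are not independent of one another. Their p of 0.0286 in the exact permutation test is the smallest that 4 against 4 allows, as for DNMT3A to DNMT3B. Of all single genes, 61.5% had no overlap between groups, and the share among other gene pairs was not computed.

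**Figure D3:**
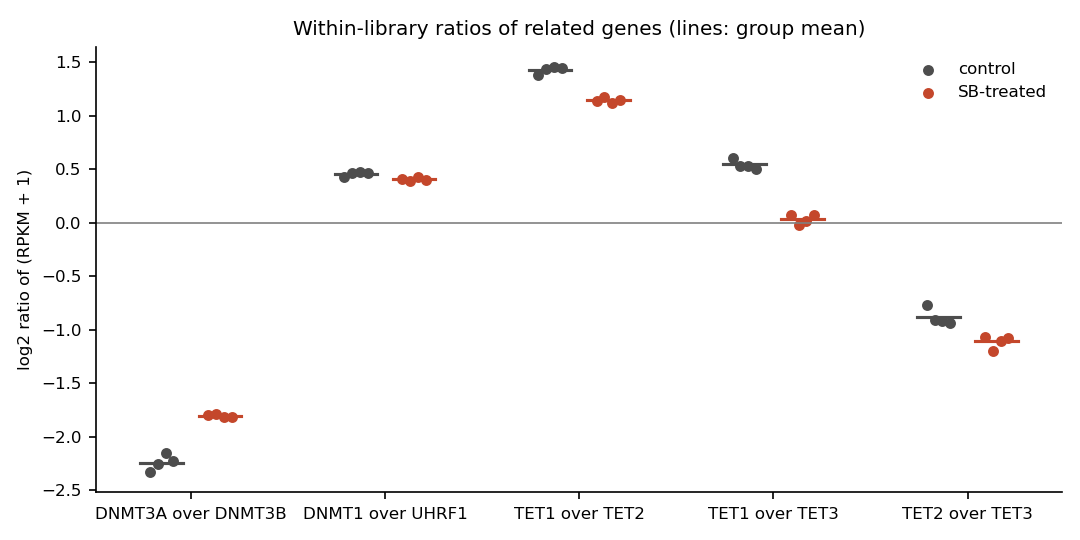
Log2 ratio of (RPKM + 1) between 2 related genes within a library (vertical axis) for 5 pairs (horizontal axis). Points are replicates and lines are group means. TET1 over TET3 drops from 0.54 to 0.03 and DNMT3A over DNMT3B climbs from -2.24 to -1.81 without overlap, while DNMT1 over UHRF1 overlaps between groups.

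TDG, the glycosylase that removes formylcytosine and carboxylcytosine as well as thymine from G/T mismatches, had the largest fall of the 9 genes. It was at 33.7, 29.0, 29.3 and 28.1 RPKM in control replicates 1 to 4 and at 25.0, 24.8, 25.1 and 24.9 RPKM in the SB-treated replicates. All controls lay above all SB-treated values, and control replicate 1 lay above the other controls. The means were 30.0 ± 2.49 and 25.0 ± 0.106 RPKM (SD, n = 4), which is a log2 fold change of -0.25 (SE 0.053, limma adjusted p = 0.00208). Without control replicate 1 the control mean was 28.8 RPKM and the log2 fold change -0.20 (limma adjusted p = 6.26e-05). TDG lies at chr12:103965872-103988874, and its values are uncertain in so far as reads could be shared with TDGP1, a pseudogene that RefSeq lists.

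MBD2, a methyl-CpG reader, was at 5.75, 4.71, 4.56 and 4.78 RPKM in control replicates 1 to 4 and at 4.52, 4.34, 4.49 and 4.67 RPKM in the SB-treated replicates. Control replicate 1 was above all other libraries, and the remaining values of the groups overlapped. The means were 4.95 ± 0.540 and 4.50 ± 0.135 RPKM (SD, n = 4), which is a log2 fold change of -0.11 (SE 0.059, limma adjusted p = 0.132) with a 95% interval from -0.24 to 0.02. Without control replicate 1 it was -0.05 (limma adjusted p = 0.168). MBD2 lies at chr18:54151606-54224669 on the minus strand, with 915 to 1373 reads per library.

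**Figure D4:**
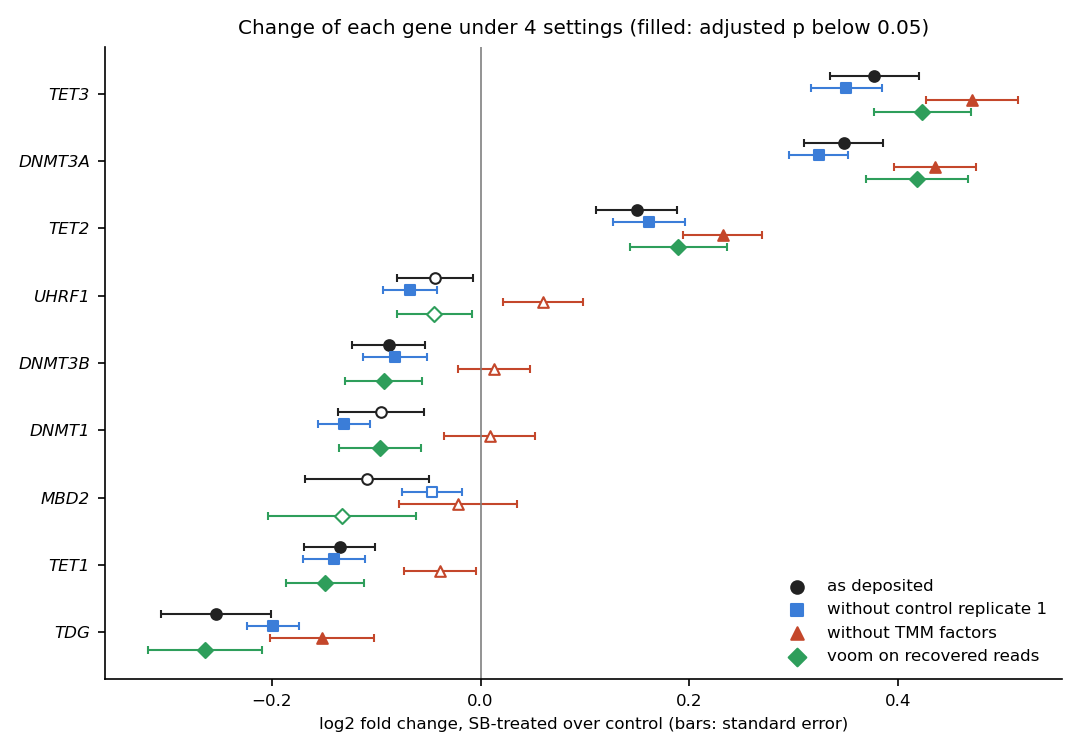
Log2 fold change of SB-treated over control cells (horizontal axis, bars are the standard error) for the 9 genes under 4 settings. Filled symbols have an adjusted p below 0.05. TET3, DNMT3A, TET2 and TDG are filled under all 4, and the removal of the TMM factors (triangles) moves every gene to the right, DNMT1 to 0.0087, DNMT3B to 0.013 and UHRF1 to 0.06.

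Levels per length were ordered DNMT1, UHRF1, TDG, DNMT3B, TET1, TET3, MBD2, DNMT3A and TET2 in the controls, and no neighbours in that order overlapped. The order spanned 82.4 RPKM for DNMT1 to 3.39 RPKM for TET2. In SB-treated cells DNMT3A stood above MBD2, at 5.74 against 4.50 RPKM, and TET1 and TET3 could not be ordered, at 9.76 and 9.52 RPKM with overlapping values. The other neighbours in SB-treated cells did not overlap.

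Over the 8 libraries, TET3 was most like C2orf72 (Pearson r = 0.998), ZNF618 (r = 0.997) and HECTD4 (r = 0.997) among 12545 genes with a mean of at least 1 RPKM. TDG was most like SNAP23 (r = 0.999), NCAPG (r = 0.998) and LRRC40 (r = 0.998). The points share the 2 groups and their library scaling, and 1251 genes had r above 0.95 with TET3 and 1194 with TDG, so these likenesses are descriptions and no nearer relation is drawn from them.

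The partners of these enzymes were counted in lists by role, beside the background of 33.0% higher and 32.6% lower and a median log2 fold change of 0.0045 over all genes. Of 8 partners of the maintenance step, 1 rose, 4 fell and 3 did not pass, with a median of -0.13. The riser was KIAA0101, the PCNA-associated factor PCLAF, from 29.9 to 36.8 RPKM (log2 fold change 0.29, limma adjusted p = 0.000135). The largest falls were in CDCA7, a partner of the remodeller HELLS, from 71.3 to 55.7 RPKM (-0.35, limma adjusted p = 2.10e-05), and in the replication clamp PCNA, from 205 to 161 RPKM (-0.32, limma adjusted p = 0.0290). The size of the PCNA value depended on control replicate 1, without which the log2 fold change was -0.19 (limma adjusted p = 0.000745). Of 27 genes that work in DNA replication, during which DNMT1 and UHRF1 act, 19 fell, 2 rose and 6 did not pass, with a median of -0.24. CDC6, which licenses origins, fell from 79.2 to 49.6 RPKM (-0.66, limma adjusted p = 1.80e-06) and RFC2, a clamp loader subunit, from 96.0 to 62.4 RPKM (-0.61, limma adjusted p = 6.65e-07), while CCNE2 rose by 0.40 and CDT1 by 0.28 on the log2 scale, the CDT1 groups overlapping. The CDT1 value was 0.17 without control replicate 1. The part of these replication genes in the levels of DNMT1 and UHRF1 was not tested.

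Of the listed regulators of the de novo step, 4 of 6 had values, without DNMT3L and DPPA3, and all 4 rose, with a median of 0.32. They were SETD2, which writes the H3K36 trimethylation that DNMT3 enzymes bind (16.1 to 21.0 RPKM, log2 fold change 0.36, limma adjusted p = 1.93e-05), NSD1 (27.4 to 34.7 RPKM, 0.33, limma adjusted p = 5.20e-05), WHSC1 (0.31) and QSER1 (0.11). Their roles differ, since QSER1 is known to protect DNA from de novo methylation. DNMT3A rose as well, by 0.35, while DNMT3B was at -0.09. The QSER1 call was the nearest to the threshold (limma adjusted p = 0.0167). With 1 library left out, 3 to 4 of these genes rose. With 4 genes against a background of 33.0% higher, the count is given as a description.

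Among 13 other methyl-CpG readers and MBD-domain genes, 7 rose, 1 fell and 5 did not pass, with a median of 0.12, whereas MBD2 was at -0.11. The list includes genes held for their MBD domain, so its count is not one of methyl-CpG readers alone. MBD6 rose from 7.52 to 10.9 RPKM (log2 fold change 0.48, limma adjusted p = 1.80e-05). The gene that fell was SETDB2, from 6.05 to 4.94 RPKM (-0.24, limma adjusted p = 0.0148), a log2 fold change of -0.16 without control replicate 1. Among 13 subunits of NuRD, the complex that MBD2 brings to DNA, 3 rose, 6 fell and 4 did not pass, with a median of -0.11. The histone chaperone RBBP7 fell from 194 to 145 RPKM (-0.42, limma adjusted p = 2.14e-05) and the deacetylase HDAC2 from 52.0 to 41.0 RPKM (-0.33, limma adjusted p = 0.00532). MBD3, which takes the place of MBD2 in NuRD, rose from 56.1 to 76.1 RPKM (0.44, limma adjusted p = 0.00321). It was counted with the readers and MBD-domain genes. Without control replicate 1 the log2 fold change was -0.23 for HDAC2 and 0.34 for MBD3, and both passed. Of the risers counted with NuRD, MTA1 went from 81.5 to 99.6 RPKM (0.29) and CHD5 from 0.448 to 1.41 RPKM (0.74, an understatement at such low RPKM).

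Of 12 listed genes of base excision repair and the GADD45 family, 11 had values. Of these, 8 fell, 2 rose and 1 did not pass, with a median of -0.34. PARP1, which senses strand breaks, fell from 491 to 326 RPKM (log2 fold change -0.59, limma adjusted p = 5.06e-07), and LIG3, the ligase of short-patch repair, fell from 24.4 to 16.1 RPKM (-0.57, limma adjusted p = 9.89e-07). The risers were NEIL1, a glycosylase, from 2.85 to 4.89 RPKM (0.61, limma adjusted p = 4.34e-06), and the scaffold XRCC1, from 31.2 to 35.6 RPKM (0.19, limma adjusted p = 0.00447). The fall of TDG at -0.25 lay nearer 0 than the median of these genes.

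Of 9 cofactor genes and regulators of the TET enzymes with values, 2 rose, 6 fell and 1 did not pass, with a median of -0.16. OGT, the GlcNAc transferase that binds TET proteins, rose from 65.4 to 95.1 RPKM (log2 fold change 0.53, limma adjusted p = 2.77e-06). CXXC4, which binds TET2 and lowers its protein, fell from 1.99 to 1.01 RPKM (-0.57, limma adjusted p = 4.44e-06). The CXXC4 change is understated at such low RPKM, and with voom it was -0.97. IDH2, a source of the cosubstrate oxoglutarate, fell from 53.2 to 41.8 RPKM (-0.34, limma adjusted p = 5.83e-05). The vitamin C transporter SLC23A2 rose by 0.10 (limma adjusted p = 0.0486), which did not hold under most settings. Without the TMM factors 2 of the list fell in place of 6.

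**Figure D5:**
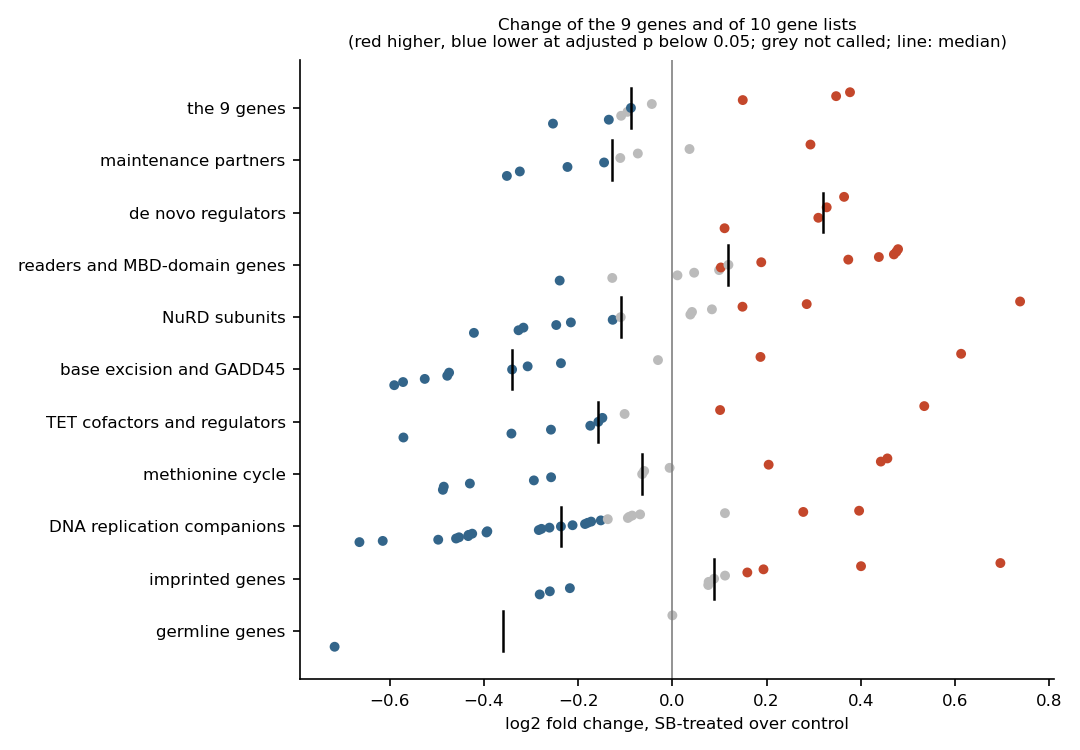
Log2 fold change of SB-treated over control cells (horizontal axis) for the 9 genes and for 10 lists of related genes. Each point is a gene, red higher or blue lower with an adjusted p below 0.05 and grey otherwise, and the black line is the median of a list, from -0.34 for base excision genes to 0.32 for regulators of the de novo step, apart from the 2 germline genes.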

How the data were processed

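Total RNA of 4 control and 4 SB-treated cultures was sequenced by the authors from stranded libraries with 50 bp single reads. Reads were mapped to hg38 with TopHat 2.1.0 and counted per gene with featureCounts 1.5.0, whose strand setting is not given in the sources used here. Genes had to exceed 1 CPM in 2 or more samples, and the authors set the library sizes with TMM factors in edgeR 3.16.5. The authors deposited RPKM values for 14526 genes, and 0 columns of per-sample values were left unused. The authors' own log2 fold change, mean log2 CPM, p-value and FDR, which the deposited table also holds, were not used.

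Here, limma 3.58.1 in R 4.3.3 was run on log2(RPKM + 1), a scale on which changes at low RPKM come out too small, with lmFit and eBayes, no filter, and p-values adjusted by Benjamini-Hochberg over the whole table. Whole reads were recovered from the steps of the RPKM values for 100% of the genes, which gave the depth, TMM factors of 0.957 to 0.969 in controls and 1.03 to 1.04 in SB-treated libraries, and the input for voom. The recovery of reads and the limma and voom fits were tested on simulated data. Ratios of gene pairs within a library were compared with two-sided exact permutation tests. Replicates are biological by the study's methods, and p-values measure the spread between these cultures. The alternatives were 7 other settings and the removal of each of 8 libraries.

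The members and lists were chosen with earlier results of these data known. Named genes were all 9 members, the 2 largest rises and the 2 largest falls among called genes of each list, and the 3 genes most like TET3 and TDG, apart from some that are not reported here. WHSC1, QSER1, MBD3 and the other genes that complete a small count were named after their values were seen. Gene positions and promoter sequences are RefSeq's on GRCh38.p14, with exons of GENCODE release 44 left out of the printed stretches.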

Additional observations from a re-analysis of the deposited data

Results flagged for a closer look

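Within groups of 4 values, a highest or lowest value was marked when its gap to the nearest other value, divided by the range, exceeded Dixon's 95% critical value. Chance marks about 1 in 20 groups. Of 94 groups examined, 7 passed against 4.7 expected, and 4 of the 7 were control replicate 1.

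Among the 9 genes, DNMT1 had control replicate 1 as a far low value (gap of 0.858 of the range), which is the library on which its call turned. DNMT3B had control replicate 3 as a far low value (0.903), and the gene's marginal fall passed both with all libraries and without control replicate 1. The ratio of TET1 to TET2 had control replicate 1 as its far value (0.832), and its change was -0.30 without that library.

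Among the partners, control replicate 1 was far high for PCNA (0.872) and for SETDB2 (0.837), both lower in SB-treated cells with and without it. Control replicate 4 was far low for MTA1 (0.837), and control replicate 3 was far low for PLAGL1 (0.912).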

How the results depend on the processing

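TET3, DNMT3A, TET2 and TDG kept direction and call under all 7 other settings and when each library was left out. Their log2 fold changes over the other settings were 0.37 to 0.47 for TET3, 0.34 to 0.44 for DNMT3A, 0.15 to 0.23 for TET2 and -0.26 to -0.15 for TDG. The removal of TMM factors moved the median log2 ratio of all genes from 0.0077 to 0.11, and with it the calls to 43.0% higher and 23.1% lower. Under it the log2 fold change turned to 0.0087 for DNMT1, 0.013 for DNMT3B and 0.060 for UHRF1, TET1 was at -0.039 (limma adjusted p = 0.337), and 1 of the 9 genes fell in place of 3. On the log2(RPKM + 1) scale of these values the median over all genes was 0.08. DNMT1, DNMT3B and TET1 lay below that median, and UHRF1 lay within its SE of 0.039 of it. Without the TMM factors the counts were also 2 higher and 2 lower among maintenance partners and 0 lower among the readers and MBD-domain genes. They were 6 higher among NuRD subunits, 2 lower among TET cofactors and 8 higher among imprinted genes. The median log2 fold change was then 0.08 over all genes, -0.025 for maintenance partners and 0.22 for the readers and MBD-domain genes. It was -0.0082 for NuRD subunits, -0.062 for TET cofactors, -0.13 for replication genes, 0.026 for the methionine cycle and 0.17 for imprinted genes.

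DNMT3B lost its call with a pseudocount of 0.1 (-0.091, limma adjusted p = 0.0705) and among genes with a mean of at least 1 RPKM (-0.088, limma adjusted p = 0.0530). DNMT1 passed with voom (-0.10, limma adjusted p = 0.0495), where 33.5% of all genes were higher and 32.8% lower. Only 1 TET cofactor gene, OGT, rose with a pseudocount of 0.1, with the RPKM minimum, with median-of-ratios scaling and with an intensity trend.

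With 1 library left out, the log2 fold change ranged from -0.13 to -0.081 for DNMT1, from -0.068 to -0.031 for UHRF1 and from -0.11 to -0.073 for DNMT3B, which kept its call only without control replicate 1 or control replicate 3. The number of the 9 genes that fell ranged from 2 to 5, the 5 without control replicate 1. Risers ranged from 1 to 2 among TET cofactors and from 1 to 2 among replication genes. Regulators of the de novo step that rose ranged from 3 to 4. The changes of the ratios ranged from 0.41 to 0.47 for DNMT3A to DNMT3B, -0.30 to -0.28 for TET1 to TET2, -0.53 to -0.49 for TET1 to TET3 and -0.25 to -0.19 for TET2 to TET3, where 4 against 3 cannot go below p = 0.0571 in the exact test. Of the genes named as the largest rises and falls of each list, 0 reversed. Of these, PCNA, SETDB2, SLC23A2 and CDT1 lost their call under some setting. SLC23A2 lost it in most.

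Replicates carry numbers 1 to 4 in both groups, but pairing by number is not established: deviations of same-numbered replicates correlated at 0.380, 0.327, 0.173 and -0.160, against -0.0541 on average for other pairs. With the replicate number as a block, DNMT3B was at -0.088 (limma adjusted p = 0.0717). With that block, 2 of the readers and MBD-domain genes fell and 1 TET cofactor gene rose. The ratios changed by 0.44, -0.28, -0.51 and -0.23 in that paired form, where an exact test of 4 pairs cannot go below p = 0.125. The block changed no other call among the 9 genes.

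The number of libraries, the 1 line, dose and time, the missing hepatocyte markers and control replicate 1 limit these values. Genes under the authors' expression minimum have no value, and RNA levels do not give methylation.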

Other observations

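The methionine cycle makes S-adenosylmethionine, the methyl donor of the DNMT enzymes. Of 14 genes listed, 11 had values, of which 3 rose, 5 fell and 3 did not pass, with a median log2 fold change of -0.06 beside 33.0% of all genes higher and 32.6% lower. The median was -0.14 without control replicate 1, where 7 fell, and without the TMM factors the median turned to 0.026. MAT2A, the synthase of S-adenosylmethionine used outside the liver, rose from 47.3 to 64.6 RPKM (0.44, limma adjusted p = 6.21e-06). MAT1A, the hepatic synthase, rose from 0.316 to 0.805 RPKM (0.46, limma adjusted p = 5.60e-06) and rested on 35 to 128 reads per library. The value of 0.46 is an understatement at such low RPKM, and with voom on the recovered reads it was 1.35. AHCYL1, listed as a relative of the cycle enzyme AHCY, fell from 64.3 to 45.6 RPKM (-0.49, limma adjusted p = 2.31e-06). PEMT, which methylates phosphatidylethanolamine, fell from 18.4 to 12.9 RPKM (-0.49, limma adjusted p = 0.000450). The count of this list is therefore not one of enzymes of the cycle alone.

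Imprinted genes depend on allelic methylation, and 11 of 20 listed had values, of which 4 rose, 3 fell and 4 did not pass. Their median log2 fold change was 0.09. Over all genes 33.0% were higher and 32.6% lower, so these counts lie near the background. The number higher ranged from 3 to 8 over the other settings. PLAGL1 rose from 33.8 to 55.3 RPKM (0.70, limma adjusted p = 9.25e-07) and L3MBTL1 from 2.61 to 3.77 RPKM (0.40, limma adjusted p = 0.000277). CDKN1C, an inhibitor of cyclin-dependent kinases, fell from 0.992 to 0.638 RPKM (-0.28, limma adjusted p = 0.000408) and PHLDA2 from 3.57 to 2.83 RPKM (-0.26, limma adjusted p = 0.00484). The CDKN1C change is understated at such low RPKM, and with voom it was -0.63. Of 12 germline genes listed as silenced by promoter methylation in somatic cells, 10 had no value. HORMAD1, a protein of meiotic chromosome axes, was not silent in these cells, at 13.2 RPKM in the controls. It fell to 7.51 RPKM (-0.72, limma adjusted p = 0.000229) and by 0.59 on the log2 scale without control replicate 1. PIWIL2 was at 0.248 RPKM in both groups.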
